A study of Mus musculus with 6 samples.

Results

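The 48 genes described here encode the machinery of mitosis and chromosome segregation, from the cyclins that start mitosis to the proteins that divide the cell. They were taken by symbol from a list of mitotic genes; the rule uses no measured value, but the list was drawn up with earlier results of these data known. All 48 were found among the 26181 genes measured. RNA was sequenced from splenic CD8+ T cells. The mice, wild-type C57BL/6, were 6 weeks old at the start and ate a diet for 7 weeks. The diet was either ND, which the labels do not spell out, or CDAHFD, which usually stands for a choline-deficient, amino acid-defined, high-fat diet and serves as a mouse model of steatohepatitis. Each diet had 3 libraries, and the comparison asks how mitotic genes stood in the splenic CD8+ preparation after CDAHFD. Separate animals are not stated, and a p-value here therefore reflects library-to-library spread only, which may be technical.

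A cell enters mitosis when cyclin B activates the kinase Cdk1. Chromosomes are then compacted by condensin, caught by spindle microtubules at their kinetochores, and held by the spindle checkpoint until each is attached. The anaphase promoting complex then marks securin and cyclin B for destruction, the sister chromatids separate, and the cell is cleaved. In T cells these genes are silent or low at rest and rise together when a clone expands, which is why Mki67 is used as a marker of dividing T cells.

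Of the 48 genes, 47 were lower in CDAHFD libraries and 1, the securin gene Pttg1, was higher (limma on log2(normalised count + 1), adjusted p under 0.05 for each, where Smc2 alone lost its direction, at 0.026, when libraries were scaled to CD8 T cell genes). Among all 15819 genes tested, 22.5% were called lower and 24.6% higher. The median member stood at 61.5% of its ND level in CDAHFD libraries, a log2 fold change of -0.71, which 4.53% of all tested genes equalled or fell below. For 47 of 48 genes all 3 CDAHFD values lay below all 3 ND values, which was so for 26.5% of tested genes, and for Pttg1 they lay above, as for 27.8%. All 48 passed the filter of a mean of 10 normalised counts. Among the 47 that fell, the CDAHFD level ranged from 44.3% of the ND level for Ttk to 86.4% for Smc2. In 5 genes the CDAHFD mean was under 50% of the ND mean, in 16 it was from 50% to 60%, in 15 from 60% to 70%, in 9 from 70% to 80% and in 2 from 80% to 100%. In bulk RNA, fewer cells of a dividing type and less RNA per cell cannot be told apart.

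**Figure D1:**
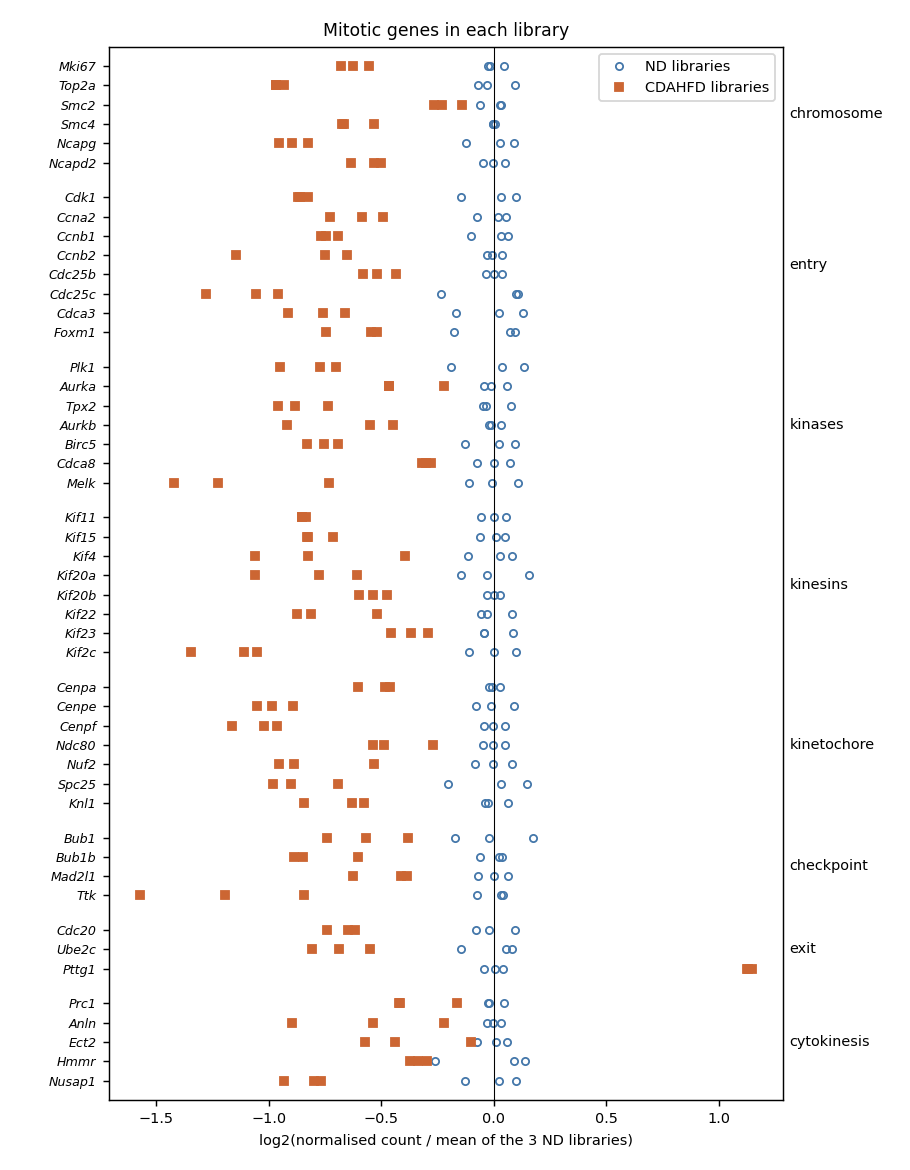
Each row is a mitotic gene, grouped by role, and each point is a library: open circles for ND, filled squares for CDAHFD, on a horizontal axis of log2(normalised count / mean of the 3 ND libraries). The CDAHFD squares lie left of the ND circles for 47 genes (Smc2 alone did not keep that direction when scaled to CD8 T cell genes) and right of them for Pttg1, and the spread within a diet is small beside most of the shifts.

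Depth ran from 25314988 to 28067393 gene-assigned reads per library. Differences between libraries were set against read sampling alone as a chi-square per degree of freedom, which grows with the square of the differences. It was 2.85 to 6.16 for pairs of the same diet and 73.2 to 81.2 for pairs across diets, so that no library repeated another. Within CDAHFD, replicate 1 differed more from both others (6.16 and 5.79) than these did from each other (2.85). The labelled cell type was present: 20 CD8 T cell identity genes summed to between 231813 and 241051 normalised counts in ND libraries and between 198490 and 205015 in CDAHFD libraries, and 16 of the 20 fell. Genes of other cells were present as well and shifted with diet. Their counts of calls stand beside 24.6% of all tested genes called higher and 22.5% called lower. All 19 tested macrophage markers rose, and the list summed to between 25312 and 28178 in ND and between 197075 and 216689 in CDAHFD libraries. Of plasma cell markers 8 of 11 rose (sums of 7455 to 7657 and 41780 to 43124, in the same order), as did 14 of 16 erythroid markers (3579 to 3887 and 12224 to 12496) and 10 of 13 neutrophil markers (3935 to 4012 and 11656 to 12884). Rises were also called for 6 of 10 NK cell, 5 of 9 germinal centre B cell, 5 of 9 CD4 and regulatory T cell, and 3 of 7 platelet and endothelial markers. Not all genes of these lists went that way. Scaled to CD8 T cell genes, Ncr1 of the NK cell list (-0.29) and Cd4 (-0.07) were not called, and Klra4 of the NK cell list was lower (-0.65). The cells that gave these rises were not identified. B cell markers fell in 11 of 15 cases (sums of 62929 to 64230 and 56624 to 60397) and dendritic cell markers in 8 of 13. Scaled to CD8 T cell genes, 7 B cell markers were lower and 4 higher (median log2 fold change -0.07). Of the dendritic cell markers 6 were then lower and 5 higher (median -0.04). On that scale 6.28% of all tested genes were lower and 50.6% higher. All 26181 genes measured had a value above 0 in some library, so the absence of a marker could not be read from these values. Of 10 listed platelet and endothelial markers 9 were among them. Of 9 heat shock genes tested 8 rose. The part of these shifts in the mitotic result was not tested.

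The median fall of the mitotic genes was larger than that of CD8 T cell genes in the same libraries. The CD8 identity list had a median log2 fold change of -0.26, against -0.71 for the 48. For every 100 normalised counts of the identity list, the 48 genes together had 19.8, 20.1 and 20.6 in ND libraries and 16.2, 15.1 and 15.5 in CDAHFD libraries, without overlap. Mki67 alone had 13.6, 13.6 and 14.4 normalised counts per 100 of Cd8a in ND libraries and 11.2, 10.5 and 10.3 in CDAHFD libraries. When libraries were scaled to equal identity genes, 38 members were still lower and Pttg1 still higher, while 6.28% of 15833 tested genes were lower and 50.6% higher on that scale. That scaling moved the median of all genes from -0.01 to 0.22, and the median member to -0.47. The 9 members no longer called were Smc2, Aurka, Cdca8, Kif23, Ndc80, Prc1, Anln, Ect2 and Hmmr, 4 of them from the 5 genes of spindle midzone and cytokinesis.

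**Figure D2:**
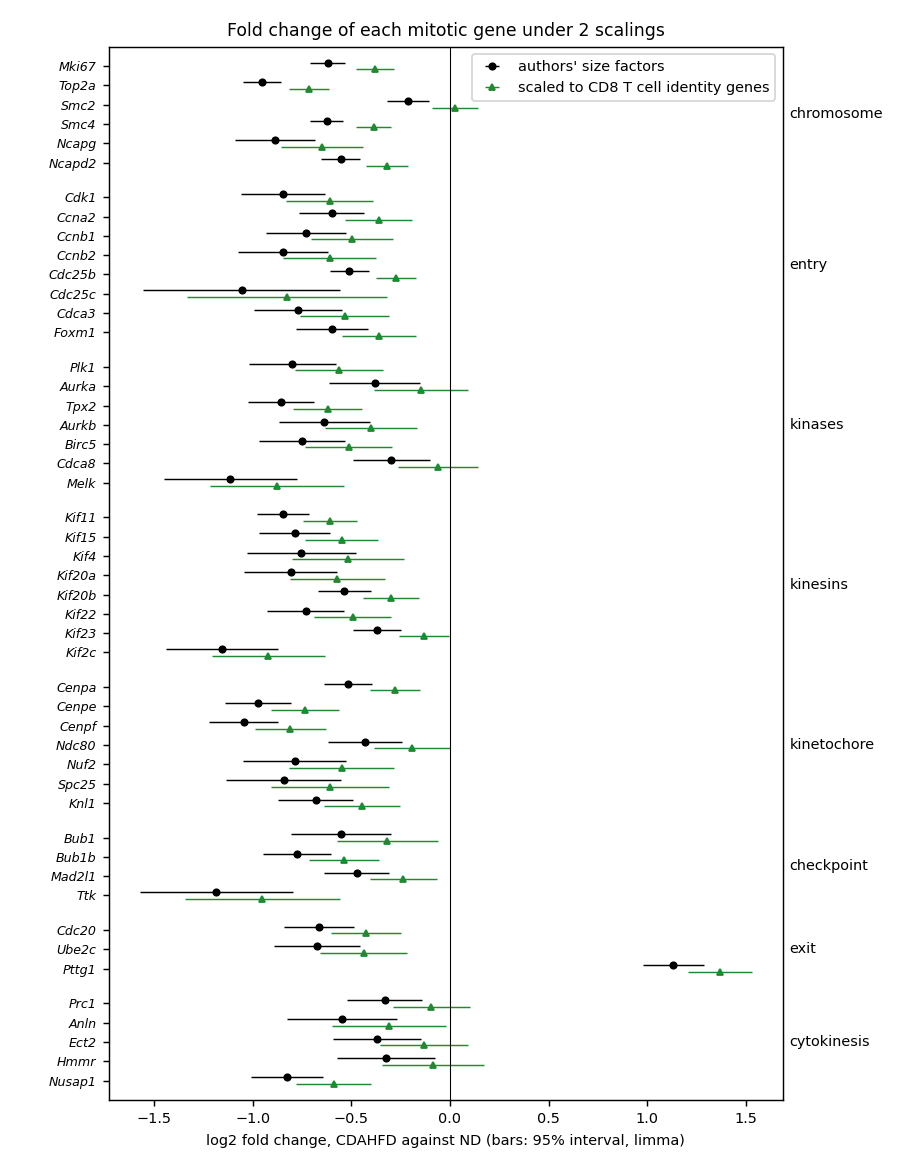
Log2 fold change of each mitotic gene (horizontal axis, CDAHFD against ND) with its 95% interval from limma, under the authors' size factors (black circles) and after scaling to CD8 T cell identity genes (green triangles). The scaling moves every gene to the right, from a median of -0.71 to -0.47, and takes Smc2 across 0 to 0.026, while Pttg1 is on the right of 0 in both.

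Members that move together are known to share promoter elements. Many promoters of late cell cycle genes carry a CHR element, bound by the MuvB complex, which represses with pocket proteins in resting cells and activates with B-MYB and FOXM1 in dividing cells, and CCAAT boxes bound by NF-Y. RefSeq promoters (build GRCm38.p6, 250 bases before to 50 after a gene's start) were at hand for 41 of the 48 members, in 43 windows since Prc1 and Ect2 each had a pair of overlapping windows. The members not matched were Smc4, Ccna2, Cdc25c, Foxm1, Tpx2, Aurkb and Kif20a. A CHR-type match, TTTGAA or TTCGAA on either strand, was found in 81.4% of members' windows, against 54.2% for other mitotic genes, 17.2% for DNA replication genes and 19.2% of all 32851 promoters. CCAAT on either strand was found in 72.1% of members' windows and 37.4% of all promoters, and both kinds together in 67.4% and 7.52%. Of 49 CHR-type matches in members, 34 were centred within 50 bases of the RefSeq start of the gene. Sites shared by the overlapping windows of Prc1 or Ect2 count once per window. Positions of matches in other promoters were not compared. A CHR-type match and a CCAAT box can share at most 1 base at their ends, and a match is a description, not a shown site. The promoters of 5 members are printed because each holds both elements upstream of a gene that fell. Capitals mark matches to both motifs. A CCAAT box on the other strand reads ATTGG in these lines. A TTTGAA element on the other strand reads there as TTCAAA instead. The windows, on the gene's own strand and outside annotated exons, are chr19:37376232-37376381 (plus strand) for Kif11, chr11:99024190-99024339 (minus strand) for Top2a, chr4:118437353-118437502 (minus strand) for Cdc20, chr10:69352939-69353088 (minus strand) for Cdk1 and chr7:135716380-135716529 (minus strand) for Mki67.
Kif11: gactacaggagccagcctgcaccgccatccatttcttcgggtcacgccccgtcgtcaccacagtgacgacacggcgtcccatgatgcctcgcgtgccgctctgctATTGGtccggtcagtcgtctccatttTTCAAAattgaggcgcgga
Top2a: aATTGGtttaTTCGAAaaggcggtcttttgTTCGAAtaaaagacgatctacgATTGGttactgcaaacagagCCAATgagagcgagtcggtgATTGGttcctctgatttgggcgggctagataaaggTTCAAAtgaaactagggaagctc
Cdc20: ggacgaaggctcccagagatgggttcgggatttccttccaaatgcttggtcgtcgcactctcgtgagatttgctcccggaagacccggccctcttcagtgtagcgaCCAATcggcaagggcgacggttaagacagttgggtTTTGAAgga
Cdk1: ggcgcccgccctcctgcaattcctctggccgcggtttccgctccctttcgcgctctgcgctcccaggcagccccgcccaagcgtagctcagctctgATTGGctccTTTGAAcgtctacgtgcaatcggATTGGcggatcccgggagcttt
Mki67: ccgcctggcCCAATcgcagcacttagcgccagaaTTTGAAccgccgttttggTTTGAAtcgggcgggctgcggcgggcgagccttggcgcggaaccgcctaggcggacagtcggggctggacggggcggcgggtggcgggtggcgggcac

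In these stretches Top2a held 4 CCAAT boxes and 3 CHR-type matches, Cdk1 2 and 1, Mki67 1 and 2, and Kif11 and Cdc20 1 of each. The size of the fall did not separate by motif: the 33 falling genes with a CHR-type match had a median log2 fold change of -0.67 and the 7 without had -0.79. Birc5, Melk, Nuf2, Mad2l1 and Nusap1 fell with neither motif in their window, and Ccnb1 and Cenpe fell with CCAAT only. The window of Pttg1 held neither, but it is placed at a start inside the gene, whose outermost annotated start lies upstream of the window, at 43426251 on chromosome 11, so it does not cover that promoter. The windows of Kif2c, Cdca8, Cdca3 and Kif4 also lie downstream of the outermost annotated start. These genes are counted among the members with a CHR-type match, at the start that RefSeq gives.

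**Figure D3:**
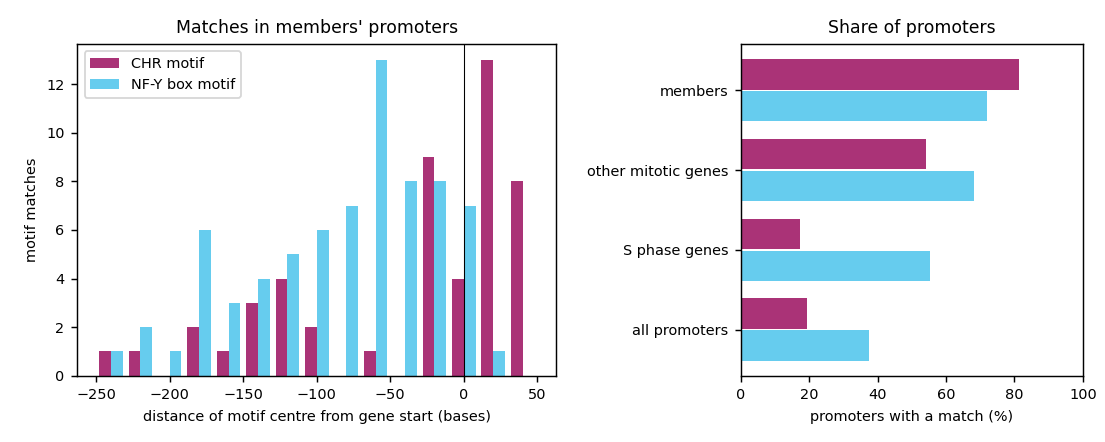
Left, number of CHR (magenta) and NF-Y box (blue) motif matches in 20-base bins by distance of the motif centre from the gene start given by RefSeq, over the 43 members' windows. Right, percentage of promoter windows with a match, where members stand at 81.4% and 72.1%, and all promoters at 19.2% and 37.4%.

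Mki67, whose protein coats mitotic chromosomes, and Top2a, which untangles DNA, are the usual markers of dividing cells. Mki67 had 4495, 4473 and 4693 normalised counts in the ND libraries and 3105, 2952 and 2844 in the CDAHFD libraries. The CDAHFD values were all lower and the diets did not overlap (log2 fold change -0.62, SE 0.04, limma adjusted p = 9.8e-13). An exact permutation test of its 20 regroupings reached its lowest possible two-sided value, p = 0.1. Top2a had 3320.3, 3628 and 3236 in ND and 1780.5, 1737 and 1735 in CDAHFD libraries, the latter nearly equal to each other (log2 fold change -0.95, SE 0.05, limma adjusted p = 4.19e-16). The ratio of Top2a to Mki67 within a library was 0.739, 0.811 and 0.689 in ND and 0.573, 0.588 and 0.610 in CDAHFD libraries, so that Top2a fell further in each.

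Condensin, the ring that compacts chromosomes, is built on the ATPases Smc2 and Smc4. These partners were unequal. Smc4 had 16241, 16233 and 16314 normalised counts in ND and 11230.4, 10258 and 10199 in CDAHFD libraries (log2 fold change -0.62, SE 0.04). It made up 33.2% to 34.5% of all counts of the 48 genes in each library. Smc2 had 1598, 1708 and 1699 in ND and 1511, 1388 and 1423 in CDAHFD libraries, the smallest fall of the 47 (log2 fold change -0.21, SE 0.05, limma adjusted p = 0.00106), and it stood at 0.026 (adjusted p = 0.717) when scaled to CD8 T cell genes. The ratio of Smc4 to Smc2 counts was 10.2, 9.50 and 9.60 in ND and 7.43, 7.39 and 7.17 in CDAHFD libraries, which is free of scaling. The condensin I subunits fell as well. Ncapg went from 330.5, 367 and 384 to 186, 204 and 194 (log2 fold change -0.89, SE 0.10), and Ncapd2 from a mean of 2574 ± 85.3 to 1753 ± 85.9 (SD, n = 3 libraries). Reads of Ncapg could include some of Lcorl, which runs the other way over 13.4% of its exonic bases, since the strand setting of the counting is not given in the sources used here.

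Mitotic entry genes fell, 8 of 8. Cdk1, the kinase that drives mitosis, had 287, 324 and 339 normalised counts in ND and 179, 173 and 174 in CDAHFD libraries (log2 fold change -0.85, SE 0.10, limma adjusted p = 7.51e-08). Its cyclins stood close together: Ccnb1 had 328, 336 and 299.8 in ND and 199, 188 and 192 in CDAHFD libraries. Ccnb2 had 350.3, 361 and 344 in ND and 224, 159 and 209 in CDAHFD libraries. The diets did not overlap for either cyclin B, and the ratio of Ccnb2 to Ccnb1 did overlap between diets. Ccna2, the cyclin of S and G2 phase, fell from a mean of 568 ± 26.2 to 375 ± 30.8, with Exosc9 overlapping 12.5% of its exonic bases on the other strand. The phosphatases that switch Cdk1 on differed in level and in fall. Cdc25b had 2471, 2351 and 2409 in ND and 1609, 1783 and 1682 in CDAHFD libraries, at 70.2% of the ND mean. Cdc25c was the least abundant member, with 53.2, 41.8 and 52.8 in ND and 25.4, 23.7 and 20.3 in CDAHFD libraries (log2 fold change -1.06, SE 0.24, limma adjusted p = 0.000674). Foxm1, a transcription factor of G2 and M phase genes, fell to 66% of its ND level, from 509 ± 51.5 to 336 ± 28.4. Cdca3, a trigger of mitotic entry, fell to 58.4%.

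Among mitotic kinases and the chromosomal passenger complex 7 of 7 genes fell. Plk1, the Polo kinase that acts from entry to cleavage, had 330.5, 353 and 282 normalised counts in ND and 198, 188 and 166 in CDAHFD libraries (log2 fold change -0.80, SE 0.11, limma adjusted p = 4.87e-07). Tpx2, which activates Aurora A on spindle microtubules, had 611, 566 and 561 in ND and 314, 298 and 348 in CDAHFD libraries. Its kinase Aurka moved less, with 220.0, 215 and 231 in ND and 190.3, 161 and 161 in CDAHFD libraries (log2 fold change -0.38, SE 0.11, limma adjusted p = 0.00618). The ratio of Tpx2 to Aurka was 2.78, 2.63 and 2.43 in ND and 1.65, 1.85 and 2.16 in CDAHFD libraries, lower in each of the latter. The passenger complex, which corrects faulty attachments, showed the same inequality: Birc5, which encodes survivin, fell from 309, 264 and 294 to 163, 171 and 179. The kinase Aurkb fell from 306, 296 and 298 to 159, 219.7 and 205. Cdca8, which encodes borealin, lay at 311, 281 and 296 in ND and at 240.0, 237 and 244 in CDAHFD libraries (log2 fold change -0.30, SE 0.10, limma adjusted p = 0.0112). The diets were apart for all 3 genes, and the ratio of Birc5 to Cdca8 was 0.993, 0.942 and 0.994 in ND and 0.678, 0.724 and 0.734 in CDAHFD libraries. Melk, a kinase gene that peaks in mitosis, was at 46.7% of its ND level, from 142, 152 and 165 to 92, 65.3 and 57.1, the CDAHFD libraries being uneven.

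All 8 mitotic kinesins, the motors that build and use the spindle, fell. Kif11 and Kif15, which both push spindle poles apart, fell alike. Kif11 had 905, 939.8 and 868 normalised counts in ND and 506, 501 and 500.4 in CDAHFD libraries (log2 fold change -0.85, SE 0.06, limma adjusted p = 7.36e-12). Kif15 had 437, 416 and 449 in ND and 264, 244 and 245 in CDAHFD libraries. The ratio of Kif11 to Kif15 overlapped between diets, at a difference of -0.06 on the log2 scale. Kif2c, which takes microtubules apart at centromeres, had the largest fall of the kinesins, from 171, 198 and 185 to 85.6, 89.0 and 72.6 (log2 fold change -1.16, SE 0.14, limma adjusted p = 5.32e-08). Kif23, a motor of the midzone, had the smallest, from 1245, 1139 and 1137 to 959, 855 and 909.9 (log2 fold change -0.37, SE 0.06). Between them, Kif20a stood at 57.3% of its ND level, Kif4 at 60.1%, Kif22 at 60.5% and Kif20b at 69.0%. On the other strand Cdc23 overlaps 29.3% of the exonic bases of Kif20a, and Pdzd11 15.1% of those of Kif4, and both neighbours fell less, with log2 fold changes of -0.16 and -0.33.

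Centromere and kinetochore genes fell, 7 of 7. Cenpf, a large kinetochore protein, had 527, 543 and 563 normalised counts in ND and 243, 279 and 268 in CDAHFD libraries (log2 fold change -1.05, SE 0.08, limma adjusted p = 2.29e-11). Cenpe, the motor that brings chromosomes to the plate, had 559, 585 and 628 in ND and 298, 318 and 285 in CDAHFD libraries. Both thus stood near 50% of ND, at 48.4% and 50.9%. Cenpa, the histone variant that marks the centromere, was higher and moved less, from 1125, 1089 and 1096 to 726, 801 and 789.9. Ndc80 and Nuf2, whose proteins pair to grip microtubules, were unequal. Ndc80 had 399, 386 and 373 in ND and 320.4, 276 and 266 in CDAHFD libraries (log2 fold change -0.43, SE 0.09), and Nuf2 had 218, 232 and 206 in ND and 151, 113 and 118 in CDAHFD libraries (log2 fold change -0.79, SE 0.13). Their count ratio rose from 1.83, 1.67 and 1.81 to 2.12, 2.45 and 2.25, without overlap. Spc25 of the same complex stood at 55.4% of its ND level and the scaffold Knl1 at 62.4%.

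The 4 spindle checkpoint genes, whose products delay anaphase, all fell. Ttk, the kinase at the head of the checkpoint, showed the largest log2 fall of the 48, from 99, 107 and 107 to 58.2, 35.0 and 45.5 normalised counts (log2 fold change -1.18, SE 0.19, limma adjusted p = 6.33e-06). The kinase-like Bub1b had 570.2, 534 and 566 in ND and 367, 309.7 and 301 in CDAHFD libraries, and Bub1 had 198, 252 and 219.7 in ND and 171, 151 and 134 in CDAHFD libraries. Mad2l1, the inhibitor that binds Cdc20, had 565, 591 and 538 in ND and 432, 366 and 424 in CDAHFD libraries. The diets were apart for all 4, with Mad2l1 at 72.1% and Bub1b at 58.6% of ND.

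Pttg1 went against the rest. It encodes securin, which holds separase inactive until anaphase. Pttg1 (chromosome 11, 43420250 to 43426251, minus strand, mm10) had 303, 311 and 293 normalised counts in ND libraries and 670.3, 662 and 660.2 in CDAHFD libraries. The values within each diet were close and those of the diets far apart, a rise to 219% of ND (log2 fold change 1.13, SE 0.08, limma adjusted p = 3.83e-13), which 8.37% of all tested genes equalled or passed. It rose to the same call under every alternative run, with log2 fold changes between 1.11 and 1.37. Its activator of destruction, an enzyme of that step and its target fell in the same libraries. Of 16 listed genes of the anaphase promoting complex, Fzr1 and Ube2s included, 8 were lower and 1 higher, against 22.5% and 24.6% of all tested genes. Cdc20, the activator that sends securin to the anaphase promoting complex, had 491, 453 and 436 in ND and 294, 300.2 and 275 in CDAHFD libraries (log2 fold change -0.66, SE 0.09). Ube2c, the ubiquitin-conjugating enzyme of that complex, had 318, 323 and 277 in ND and 190.3, 175 and 209 in CDAHFD libraries, where Tnnc2 overlaps 22.8% of its exonic bases on the other strand. Espl1, which encodes separase and is not one of the 48, had 437, 444 and 458 in ND and 199, 222 and 249 in CDAHFD libraries. The ratio of Pttg1 to Espl1 counts thus went from 0.695, 0.701 and 0.640 to 3.37, 2.99 and 2.65, and that of Pttg1 to Ccnb1 from 0.924, 0.927 and 0.978 to 3.37, 3.51 and 3.44. No annotated gene overlaps the exons of Pttg1, and its nearest neighbour Slu7, a splicing factor gene 7493 bases away and picked with its value known, rose slightly, from 1979 to 2414 normalised counts (log2 fold change 0.29). Macrophage, plasma cell, erythroid and neutrophil markers rose in the same libraries, as given above, and their part in the rise of Pttg1 was not tested.

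**Figure D4:**
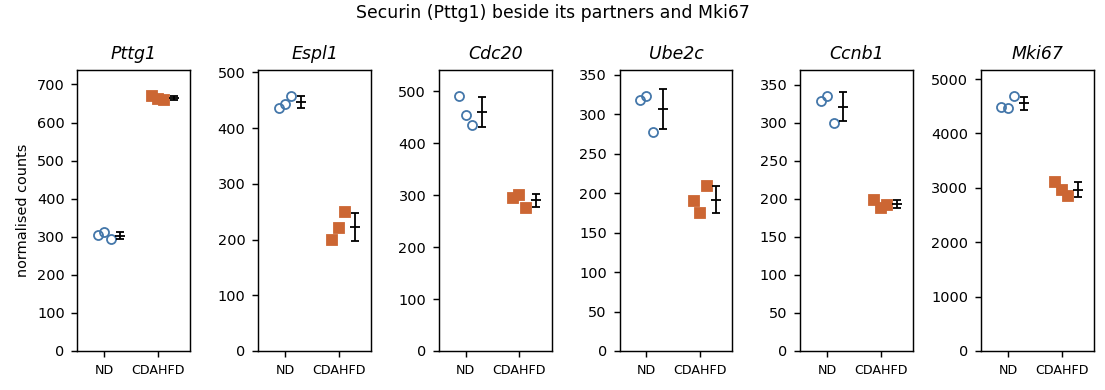
Normalised counts (vertical axes from 0) of Pttg1, its target Espl1, the destruction genes Cdc20 and Ube2c, cyclin B1 and Mki67 in each ND (open circles) and CDAHFD (filled squares) library, with mean and SD beside the points (n = 3 libraries). Pttg1 goes from near 303 to 664, while Espl1 goes from 446 to 223 and Mki67 from 4554 to 2967.

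The genes of the spindle midzone and cytokinesis all fell, with the smallest median of the 8 roles, a log2 fold change of -0.37 over 5 genes. Nusap1, which bundles spindle microtubules, was an exception, from 427, 500.0 and 475 to 275, 269 and 245 normalised counts (log2 fold change -0.83, SE 0.09, limma adjusted p = 8.39e-09). Prc1, which crosslinks the midzone, had 346, 345 and 362 in ND and 262, 313 and 263 in CDAHFD libraries, with Rccd1 overlapping 11.1% of its exonic bases. Anln, a scaffold of the contractile ring, had 215, 209 and 206 in ND and 145, 113 and 180.0 in CDAHFD libraries. Ect2, which starts the cleavage furrow, came close to overlap, with 308, 289.8 and 318 in ND and 225, 284 and 205 in CDAHFD libraries (log2 fold change -0.37, SE 0.11, limma adjusted p = 0.00638). Hmmr, a spindle protein, had 168, 221 and 214 in ND and 155, 159 and 164 in CDAHFD libraries, also close to overlap, and had the largest adjusted p of the 48 (log2 fold change -0.32, SE 0.12, limma adjusted p = 0.0303). DESeq2 gave Hmmr an adjusted p of 0.0581, and it lost its call without ND replicate 2, ND replicate 3, CDAHFD replicate 1 or CDAHFD replicate 2, at adjusted p of 0.0556 to 0.158. Ect2 lost its call without CDAHFD replicate 3 (adjusted p = 0.0606), and Cdca8 without ND replicate 1 (adjusted p = 0.0529).

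Set side by side per length, the members covered a wide range of levels. Per kilobase of annotated exon, Smc4 stood highest in ND libraries, at 3121 normalised counts, and Cdc25b followed at 647, Mki67 at 453 and Ncapd2 at 411. Ttk, at 21.2, and Cdc25c, at 10.0, were lowest. Smc4, Cdc25b and Mki67 did not overlap in their ND values, whereas Pttg1 (147 to 156), Kif23 (144 to 158) and Plk1 (128 to 161), which were neighbours in the order, did. In CDAHFD libraries Pttg1 went from rank 10 of the 48 to rank 3, at 332, while Smc4 and Cdc25b kept ranks 1 and 2 and Ttk and Cdc25c ranks 47 and 48. The spread within a diet was that of other genes, with a median SD of 0.105 on the log2 scale for the 48 and 0.0989 for all tested genes. CDAHFD replicate 1 was slightly higher than its fellows, with 32 of 48 members above their diet mean and a median deviation of 0.06.

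Of 74 mitotic genes outside the 48, 56 fell, 4 rose and 14 did not pass the test, with a median of -0.52. Among all tested genes 22.5% were lower and 24.6% higher. Scaled to CD8 T cell genes, 35 were lower, 9 higher and 30 not called, with a median of -0.29. On that scale 6.28% of all tested genes were lower and 50.6% higher. Among them Aspm, a spindle pole protein, fell from 475 to 222, the minus-end kinesin Kifc1 from 431 to 216, separase gene Espl1 from 446 to 223 and the condensin I subunit Ncaph from 382 to 205 normalised counts. The 4 that rose included partners of members. Ncapg2, the condensin II counterpart of Ncapg, had 668, 644 and 733 in ND and 1074, 911 and 923 in CDAHFD libraries (log2 fold change 0.51, SE 0.07, limma adjusted p = 7.05e-07). Racgap1, which joins Kif23 in centralspindlin, had 3823, 3643 and 3483 in ND and 4447, 4343 and 4357 in CDAHFD libraries (log2 fold change 0.26, SE 0.04). The ratio of Ncapg to Ncapg2 fell from 0.495, 0.571 and 0.524 to 0.173, 0.224 and 0.210, and that of Kif23 to Racgap1 from 0.326, 0.313 and 0.327 to 0.216, 0.197 and 0.209. The kinetochore genes Cenpo, from 461 to 529, and Mis12, from 983 to 1098, rose slightly. Adcy3, which rose by 0.78 on the log2 scale, overlaps 19.0% of the exonic bases of Cenpo. In all 17 ratios between partners were compared, chosen after their values were seen. For 14 the diets were apart, each with an exact two-sided permutation p of 0.1, the smallest possible, and 0.121 after Benjamini-Hochberg adjustment.

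Complexes that resting cells use as well fell less at the median than the mitotic genes. Their genes were still called lower more often than the 22.5% of all tested genes, whose median was -0.01. The share was 50% for the listed genes of the anaphase promoting complex and 40% for cohesin. Of 16 genes of the anaphase promoting complex 8 fell and 1 rose, with a median of -0.14. When scaled to CD8 T cell genes 1 was lower and 4 higher, with a median of 0.09. Cdc16 fell from 1575 to 1211, Ube2s from 1180.3 to 922 and Anapc5 from 7704 to 6634, and Anapc16 rose from 1319.6 to 1647. On the CD8 scale Ube2s, at a log2 fold change of -0.12, and Anapc5, at 0.02, were not called. Of 10 cohesin genes, which hold sister chromatids together, 4 fell and none rose, the smallest adjusted p being that of Smc1a, from 6597 to 5711 normalised counts (log2 fold change 0.03 when scaled to CD8 T cell genes). Their median was -0.08, and 0.15 when scaled to CD8 T cell genes, below the 0.22 of all tested genes on that scale. There 7 rose and none fell, against 50.6% and 6.28% of all tested genes. DNA replication and S phase genes lay between, with 22 of 30 lower, 1 higher and 7 not called, and a median of -0.28, close to the -0.26 of CD8 identity genes. Uhrf1 fell from 1252 to 815, Pole from 898 to 640.3, Rrm2 from 781 to 565 and Mcm7 from 2783 to 2316, while the salvage kinase Tk1 was the gene that rose, from 449 to 536. Scaled to CD8 T cell genes, 7 of the 30 S phase genes were lower and 3 higher, and the median was -0.04, with Mcm7 not called (log2 fold change -0.028).

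**Figure D5:**
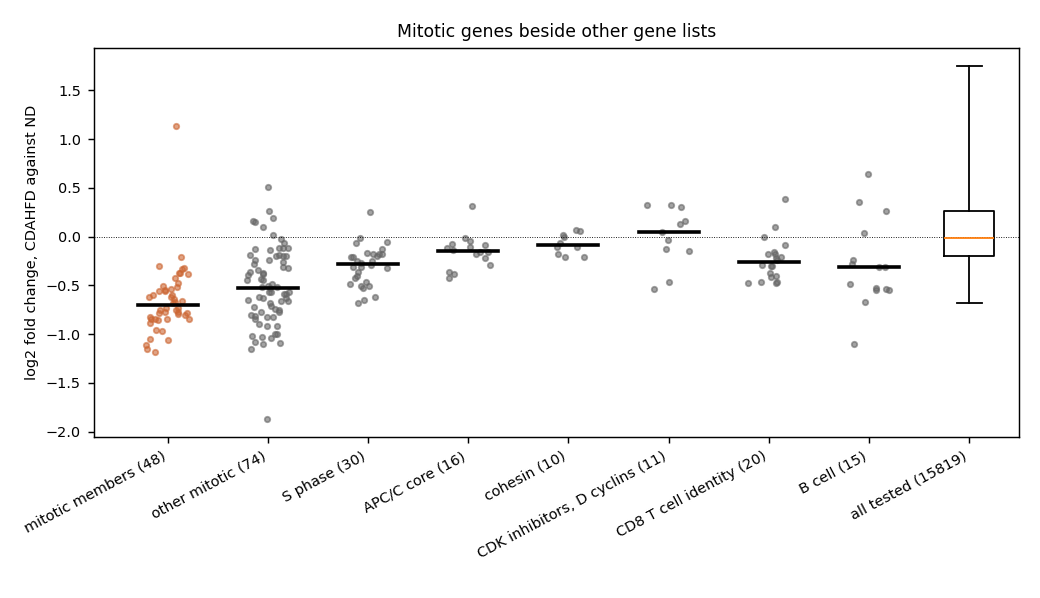
Log2 fold change (vertical axis, CDAHFD against ND) of each tested gene in the mitotic group and 7 other lists, with a bar at each median, and a box for all 15819 tested genes (box, quartiles; whiskers, 5% to 95%; line, median). The 48 mitotic genes centre on -0.71, other mitotic genes on -0.52, S phase genes on -0.28 and cohesin genes on -0.08. When scaled to CD8 T cell genes, cohesin genes centre on 0.15 and all tested genes on 0.22. The list marked APC/C core holds the listed genes of the anaphase promoting complex, Fzr1 and Ube2s included.

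Transcription factors and pocket proteins of cell cycle genes were measured as well, among them MuvB and NF-Y subunits and E2F factors, which bind sites of their own. Of 20 such regulators 9 fell, 3 rose and 8 did not pass the test, with a median of -0.11. Among all tested genes 22.5% were lower and 24.6% higher. The balance turned when scaled to CD8 T cell genes, with 2 lower, 9 higher and a median of 0.13. On that scale 6.28% of all tested genes were lower and 50.6% higher, with a larger median of 0.22. E2f2, one of the E2F factors, had the largest fall of the list, from 1158, 1210.2 and 1248 to 649, 640.2 and 671 normalised counts (log2 fold change -0.88, SE 0.06, limma adjusted p = 3.76e-13). The NF-Y subunits split, with Nfya rising from 2253 to 2751 and Nfyb falling from 1248 to 1032 and Nfyc from 1399 to 1205 (log2 fold changes of -0.036 and 0.02, neither called, when scaled to CD8 T cell genes). Rbl2, the pocket protein p130 of resting cells, rose from 3190.0 to 3567, and the MuvB subunit Lin54 from 637 to 717 normalised counts. Mybl2, which encodes B-MYB and was picked with its value known, fell from 205 to 158, and was not called when scaled to CD8 T cell genes (log2 fold change -0.13, limma adjusted p = 0.367).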

How the data were processed

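The members and gene lists were chosen with earlier results of these data known. The deposited table names its values normalised counts, a signal per gene in each of 6 libraries. From the values, 1 factor per library had been divided out, called the authors' size factor here. All values came back to whole reads within 0.001, which gave 25314988 to 28067393 reads per library. The submitters' processing notes name build mm10; aligner, counter, annotation and strand setting are not given in the sources used here. CDHFD columns were read as CDAHFD, the only other group. Of 26181 gene IDs 34 had no symbol. Genes with a mean of at least 10 (15819) were tested with limma 3.58.1 (R 4.3.3, trend and robust) on log2(normalised count + 1), which understates changes of low genes, with Benjamini-Hochberg adjustment over all. edgeR 4.0.16 and DESeq2 1.42.0 on the recovered reads were alternatives. Scaling to CD8 T cell genes set the libraries' size by 20 identity genes. Named genes outside the 48 were the strongest calls of each list and those called against it. Promoters came from RefSeq (GRCm38.p6) and positions from GENCODE (mm10). The fit was tested on simulated data.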

Additional observations from a re-analysis of the deposited data

How the results depend on the processing

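Across the alternatives run (pseudocounts, filters on low values, equal totals, TMM, CD8 T cell scaling, limma without trend, edgeR, DESeq2, replicate block, leaving out each library), Pttg1 stayed higher and 38 to 47 members stayed lower. Scaling to CD8 T cell genes gave 38, turned Smc2 to 0.026 on the log2 scale, and left 35 of 74 other mitotic and 7 of 30 S phase genes lower, where the authors' size factors gave 56 and 22 and the other settings that kept all libraries 48 to 57 and 18 to 24; it lowered the share of lower calls among all calls from 47.8% to 11%. limma without trend called 44, losing Anln, Ect2 and Hmmr, and DESeq2 46. A minimum mean of 50 left 47 members tested and 46 lower. Leaving out 1 library gave 46 in each case, with 49 to 56 other mitotic genes, 19 to 23 S phase genes and 6608 to 7509 genes in all. Of 815 values of single members under alternatives 796 kept direction and call, 18 lost the call and 1 reversed. edgeR called 7536 genes and DESeq2 6755, against 7449.

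Libraries with the same replicate number did not deviate together (correlations of 0.04, -0.05 and 0.06), so the numbers were not taken as pairs. With the replicate block 7250 genes were called, 47 members lower and 1 higher. Members with few reads, such as Cdc25c and Ttk, have the widest errors.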

Other observations

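Brakes and early drivers of the cell cycle did not move as the mitotic genes did. Of 11 tested CDK inhibitor, D cyclin and related genes 5 were called higher, 3 lower and 3 neither (limma, adjusted p under 0.05), with a median log2 fold change of 0.05 (0.28 when scaled to CD8 T cell genes). Among all tested genes 24.6% were higher and 22.5% lower. When scaled to CD8 T cell genes, 6 of the 11 were higher and 1 lower, against 50.6% and 6.28% of all tested genes. The median of all tested genes was -0.01, and 0.22 when scaled to CD8 T cell genes. Cdkn1b, which encodes the inhibitor p27 of resting T cells, had 4868, 4776 and 4634 normalised counts in ND and 6244, 5629 and 5737 in CDAHFD libraries (log2 fold change 0.30, SE 0.04). The D cyclin Ccnd3 went from 3797 to 4763, Ccnd2 from 12707 to 14172, their kinase Cdk6 from 1722 to 2151 and the antiproliferative gene Btg2 from 4374 to 4779. The INK4 inhibitor genes Cdkn2d and Cdkn2c fell, Cdkn2d from 1719 to 1182 and Cdkn2c from 310.2 to 224. Scaled to CD8 T cell genes, Cdkn2d was still lower and Cdkn2c was not called (log2 fold change -0.23, limma adjusted p = 0.0572). Cdk4 fell from 2852 to 2576 and stood at 0.09 on the log2 scale (adjusted p = 0.101) when scaled to CD8 T cell genes. Cdkn1a, which encodes p21, lay at 111, 106 and 132 in ND and 131, 107 and 103 in CDAHFD libraries, overlapping (limma adjusted p = 0.872). Ccnd2, Btg2 and Cdkn1a were picked with their values known.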
